A study of Mus musculus with 10 samples.

Results

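The clade B serpins, the stefins and cystatin M/E are protease inhibitors of the epidermis, and 28 of their genes were read on arrays of ILK-deficient and ILK-expressing mouse epidermis. They were taken by name, as every gene symbol that starts with Serpinb or Stfa and a digit, together with Cstb and Cst6, wherever a probe set carried that symbol alone. These 28 genes, out of 19938 genes with such a probe set, are 24 Serpinb genes, the stefin A genes Stfa2 and Stfa3, the stefin B gene Cstb and the cystatin M/E gene Cst6. Cst6 is a secreted cystatin and not a stefin. Integrin-linked kinase (ILK) is a scaffold protein of integrin adhesions. ILK-deficient mice (K14Cre; Ilk f/f) were homozygous for the floxed Ilktm1Star allele, and the controls, called ILK-expressing (K14Cre; Ilk f/+), were heterozygous littermates. All mice carried a single dose of the Tg(KRT14-cre)1Amc/J transgene, in which the keratin 14 promoter drives Cre in keratinocytes, so the controls had Cre and 1 floxed allele too. Epidermis of 3-day-old mice was lifted off the dermis in a 1 h digestion with dispase at 8 mg/ml, and RNA of 5 mice per genotype was put on 10 GeneChip Mouse Gene 1.0 ST Arrays. Each array is a separate mouse, so the p-values below set a difference between genotypes against the spread between these mice. The labels do not give the litter of a mouse, and no litter block was fitted.

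A serpin of clade B mostly stays inside the cell that makes it, and an inhibitory serpin traps a protease by offering a loop as bait and changing shape once the loop is cut. Most inhibitory members act on serine proteases, and a few act on cysteine proteases such as the lysosomal cathepsins. Stefins are small cytoplasmic proteins that block cathepsins reversibly, and cystatin M/E blocks legumain and cathepsins outside and inside the cell. In the epidermis these inhibitors are best known from the upper, differentiating layers, where proteases cut structural proteins and the links between corneocytes. Loss of several of them leads to scaling skin in people or mice.

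Serpinb11 was the member with the largest difference between the genotypes, and it was higher in ILK-deficient epidermis, together with Serpinb6a. Serpinb3a and Serpinb7 were lower. The other 21 of the 25 members tested did not pass the test, among them the abundantly read Serpinb5, Serpinb12, Stfa2 and Stfa3. A called gene is one with an adjusted p under 0.05 in limma, with Benjamini-Hochberg adjustment across the 32046 probe sets that reached a linear value of 50 on 5 or more arrays. Of all probe sets tested, 3.78% were called (2.81% higher and 0.97% lower in ILK-deficient epidermis), against 4 of 25 members (2 higher and 2 lower), or 16%. With 1 array left out, 597 to 1010 probe sets were called in place of 1211. The members called were then 2 without ILK-deficient replicate 2, 4 or 5 or ILK-expressing replicate 1 or 4, and 3 without any other array. For 5 members, or 20%, no array of a genotype overlapped the other genotype, against 6.33% of all probe sets tested. The same 5 members had an exact permutation p under 0.05, against 15.2% of all probe sets. The median log2 fold change of the members was -0.06, with 17 below 0 and 8 above, and it lay between -0.104 and -0.0316 with 1 array left out. The median over all probe sets tested was 0.00, and a shift of the members as a list was not tested. A log2 fold change above 0 means a higher value in ILK-deficient epidermis throughout.

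**Figure D1:**
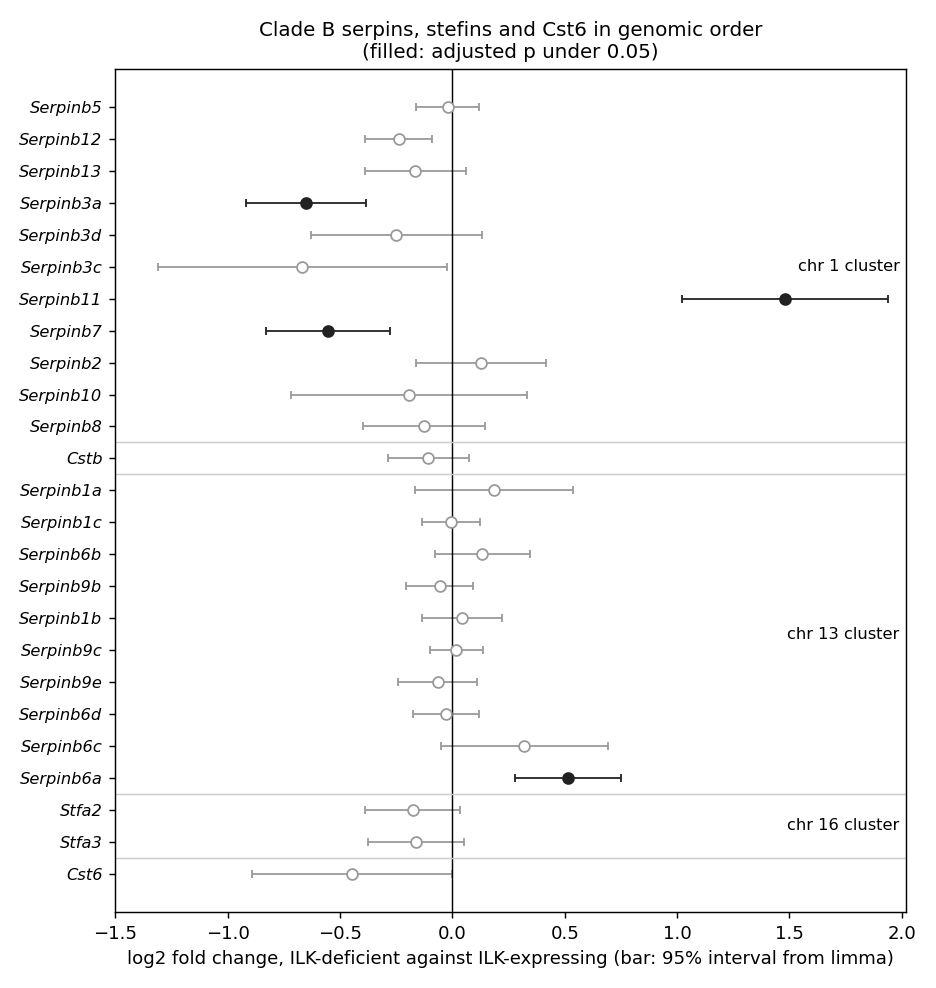
Log2 fold change (ILK-deficient against ILK-expressing, x axis) of the 25 members tested, listed in genomic order, with the 95% interval from limma as a bar and a filled point where the adjusted p was under 0.05. Serpinb11 stands at 1.48 directly between members of chromosome 1 that lie below 0, and most of the chromosome 13 cluster lies close to 0.

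The members form 3 gene clusters, with Cstb and Cst6 apart from them. The Serpinb genes of chromosome 1 gave 3 of the 4 calls. All 11 were tested, 1 was higher, 2 were lower and 8 did not pass, and the median log2 fold change was -0.19. Of the 13 Serpinb genes of chromosome 13, 10 were tested, 1 was higher and 9 did not pass, with a median of 0.03. Several of these 9 were read at low values, given below. Neither of the 2 stefin A members, on chromosome 16, passed (median -0.17). Csta1, a further stefin A gene that the naming rule does not take, was lower (log2 fold change -0.57, limma adjusted p = 0.0171). Cstdc6, which the rule does not take either, did not pass (log2 fold change -0.17, limma adjusted p = 0.727). Whether the clusters differed from one another was not tested. The Ilk probe set itself averaged 8.94 ± 0.118 on ILK-deficient arrays and 9.17 ± 0.181 on ILK-expressing arrays (SD, n = 5 each, log2 fold change -0.23, limma adjusted p = 0.253, exact permutation p = 0.0397). This single value for the gene checks the labels little, and why it differed so little was not tested. The paper reports that on these arrays Ilk exons between the loxP sites read substantially lower in ILK-deficient epidermis. Exons ahead of those sites read similarly in both genotypes, by its account. Whether a member differs through less RNA per cell or through fewer cells that make it cannot be told apart in RNA of whole epidermis.

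The start regions of the called members and of Serpinb3c are shown here. The neighbours Serpinb11 and Serpinb7 had opposite fold changes, and the sequences around the starts of Serpinb3a and Serpinb3c are near-identical. Each line gives the 100 bases ahead of the transcription start on the gene's own strand, 5′ to 3′, from RefSeq on GRCm38.p6. Capitals mark the letters TGANTCA, to which AP-1 factors bind, TATAAA, the letters of a TATA box, and GGGCGG, to which Sp1 factors bind, each in either orientation.
Serpinb11, chr1:107362214-107362313, plus strand: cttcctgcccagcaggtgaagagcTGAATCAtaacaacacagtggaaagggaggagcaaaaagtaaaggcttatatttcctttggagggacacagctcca
Serpinb7, chr1:107422589-107422688, plus strand: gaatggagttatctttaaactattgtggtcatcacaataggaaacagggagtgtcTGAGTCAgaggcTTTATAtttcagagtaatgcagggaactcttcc
Serpinb3a, chr1:107052304-107052403, minus strand: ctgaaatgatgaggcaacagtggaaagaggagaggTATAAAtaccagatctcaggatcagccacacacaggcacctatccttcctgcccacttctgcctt
Serpinb3c, chr1:107278372-107278471, minus strand: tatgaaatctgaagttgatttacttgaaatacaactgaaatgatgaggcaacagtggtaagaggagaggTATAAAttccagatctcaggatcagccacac
Serpinb6a, chr13:34002795-34002894, minus strand, the outermost of 2 listed starts: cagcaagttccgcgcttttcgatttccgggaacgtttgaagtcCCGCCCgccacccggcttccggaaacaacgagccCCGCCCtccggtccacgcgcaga
In the full windows, which run from 250 bases ahead of a start to 50 bases past it, TGANTCA was found for 7 of the 10 chromosome 1 members with a window (Serpinb2, Serpinb5, Serpinb7, Serpinb8, Serpinb10, Serpinb11 and Serpinb12) and for 0 of 12 on chromosome 13. Among the 2 stefin A members it was found for Stfa3. Of all 32851 windows, 7.81% hold it. A gene was counted if any of its 1 or 2 windows held the letters, while the percentages are of single windows. TATAAA was found for 6 of 10 (Serpinb2, Serpinb3a, Serpinb3c, Serpinb3d, Serpinb7 and Serpinb12) and for 2 of 12, and 13.6% of all windows hold it. Matches were counted anywhere in a window, as at 201 and 220 bases ahead of the start in Serpinb12 and past the start in Serpinb6c. GGGCGG, held by 35.7% of all windows, was found for 1 of 10 (Serpinb5) and for 4 of 12 (Serpinb6a, Serpinb6b, Serpinb6c and Serpinb9). The neighbours Serpinb11 and Serpinb7 both held TGANTCA, at 76 and 181 bases ahead of the start in Serpinb11 and at 45 bases in Serpinb7. These are matches of letters, not shown binding sites, and of the 10 motifs searched only those marked above are given. Genes of a cluster are relatives and not separate draws, and a difference between the clusters was not tested. The windows of Serpinb3a and Serpinb3c were identical at 249 of 266 aligned bases (93.6%). Their listed starts are offset, since the shared TATAAA lies 65 bases ahead of the start in Serpinb3a and 31 in Serpinb3c. The GC content of the printed stretches was 65% for Serpinb6a and between 38% and 49% for the other 4.

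Serpinb11, an epithelial clade B serpin whose mouse protein blocks trypsin-like proteases, had log2 values of 9.32, 8.95, 9.07, 9.11 and 9.09 on the ILK-deficient arrays, replicates 1 to 5. On the ILK-expressing arrays it was at 7.27, 7.19, 7.33, 8.22 and 8.13. The genotypes did not overlap, and the lowest ILK-deficient array was 0.731 above the highest ILK-expressing array. Within the ILK-expressing group, replicates 4 and 5 lay apart from the other 3 arrays, so the spread was wider there (SD 0.504, n = 5) than in the ILK-deficient group (SD 0.134, n = 5). The log2 fold change was 1.48 (95% interval 1.02 to 1.94, standard error 0.207, limma adjusted p = 0.00537, exact permutation p = 0.00794), a 2.79-fold higher value. With 5 arrays against 5, 0.00794 is the smallest p that the exact test can give. Serpinb11 kept its call under all 19 alternatives, with log2 fold changes between 1.37 and 1.63.

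Serpinb7, called megsin, is the next serpin gene along chromosome 1, and loss of its human counterpart causes a thickening of the skin of palms and soles. It was at 11.38, 11.49, 11.79, 11.13 and 11.72 on the ILK-deficient arrays and at 11.97, 11.97, 11.95, 12.12 and 12.27 on the ILK-expressing arrays. Every ILK-deficient array was lower than every ILK-expressing array, by at least 0.162. The log2 fold change was -0.55 (95% interval -0.83 to -0.28, standard error 0.124, limma adjusted p = 0.0366, exact permutation p = 0.00794), a 1.47-fold lower value. The call was close to the threshold. It ended when any of ILK-deficient replicates 1, 2, 4 and 5 or any of the 5 ILK-expressing replicates was left out, at limma adjusted p between 0.0502 and 0.0914, with log2 fold changes that stayed between -0.62 and -0.46 over all 10 arrays left out.

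Serpinb3a belongs to the mouse counterparts of the squamous cell carcinoma antigens, which inhibit serine and cysteine proteases, and it was lower in ILK-deficient epidermis. Its log2 values were 12.35, 12.13, 11.81, 12.48 and 12.19 on the ILK-deficient arrays and 12.89, 12.98, 12.72, 12.67 and 12.97 on the ILK-expressing arrays. The groups were 0.191 apart at their nearest arrays. The log2 fold change was -0.65 (95% interval -0.92 to -0.39, standard error 0.121, limma adjusted p = 0.0169, exact permutation p = 0.00794), a 1.57-fold lower value. The call held under all 19 alternatives, but came close to the threshold, at a limma adjusted p of up to 0.0461 with 1 array left out. Its paralog Serpinb3c had a difference of the same size, but it was read with a wider spread. Serpinb3c was at 11.02, 10.95, 10.64, 11.30 and 9.88 on the ILK-deficient and at 11.51, 11.71, 11.16, 10.73 and 12.02 on the ILK-expressing arrays. The genotypes overlapped, since ILK-expressing replicate 4 lay below 3 ILK-deficient arrays, and the log2 fold change of -0.67 (95% interval -1.31 to -0.02, limma adjusted p = 0.292, exact permutation p = 0.0873) did not pass. Serpinb3d overlapped more, at 7.30 to 8.00 against 7.58 to 8.32 (log2 fold change -0.25, limma adjusted p = 0.594). Serpinb3b has no probe set of its own here. Because these paralogs are close in sequence, probes of each may take up transcript of the others, and how far they do was not tested.

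**Figure D2:**
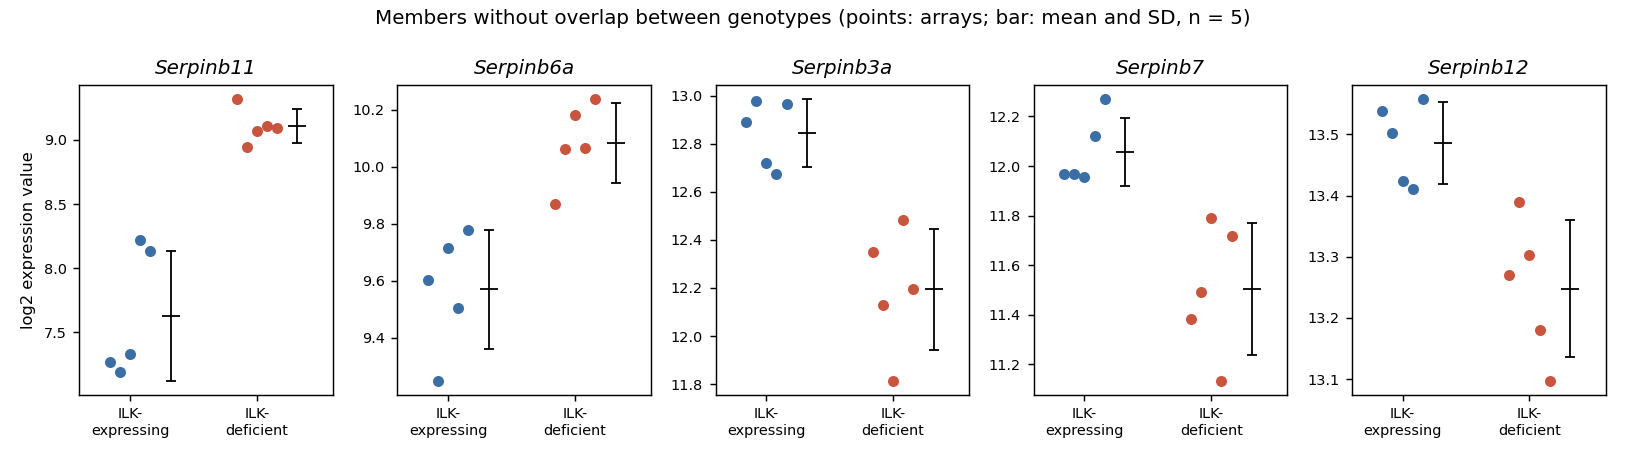
Log2 expression values (y axis, a scale of its own in each panel) of the 5 members whose genotypes did not overlap. Points are arrays, 5 per genotype, and the bar gives the mean and SD. Serpinb11 and Serpinb6a are higher on every ILK-deficient array, and Serpinb3a, Serpinb7 and Serpinb12 are lower on every ILK-deficient array.

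Serpinb12, another serpin of epithelial cells, had a small difference that did not pass. It was at 13.27, 13.39, 13.30, 13.18 and 13.10 on the ILK-deficient arrays and at 13.54, 13.50, 13.42, 13.41 and 13.56 on the ILK-expressing arrays. The groups did not overlap, with a gap of 0.0214. The log2 fold change of -0.24 (95% interval -0.39 to -0.09, limma adjusted p = 0.0858, exact permutation p = 0.00794) did not reach the threshold over all probe sets. It did in 1 of the 19 alternatives, a trend and robust variance, at a limma adjusted p of 0.048. Serpinb5, which encodes maspin, a serpin that does not inhibit proteases, lies at the end of the cluster. It was at 13.77, 13.76, 13.80, 13.64 and 13.83 on the ILK-deficient and at 13.82, 13.63, 13.86, 13.83 and 13.76 on the ILK-expressing arrays. These ranges lay over each other, and the log2 fold change was -0.02 (standard error 0.0632, limma adjusted p = 0.946). Serpinb13, whose human counterpart inhibits cathepsins in keratinocytes, was at or over the linear value of 50 on 7 arrays only, and its log2 fold change was -0.16 (limma adjusted p = 0.529).

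Serpinb2, Serpinb10 and Serpinb8 follow Serpinb7 along the chromosome and did not pass. Serpinb2 encodes plasminogen activator inhibitor 2, which blocks urokinase. It was at 12.16, 12.05, 12.71, 12.05 and 12.16 on the ILK-deficient and at 12.14, 12.01, 12.13, 11.92 and 12.33 on the ILK-expressing arrays (log2 fold change 0.13, limma adjusted p = 0.772). ILK-deficient replicate 3 stood above all other arrays. The same array was the highest of the 10 for Serpinb10 too, at 12.55 where the other ILK-deficient arrays spanned 11.07 to 11.93, and Serpinb10, a serpin first known from blood-forming cells, had a log2 fold change of -0.19 (limma adjusted p = 0.829). Serpinb8, whose human counterpart is lost in a peeling skin disorder, had a log2 fold change of -0.13 (limma adjusted p = 0.748). In ILK-deficient replicate 3 it was at 11.48, and at 10.87 to 11.30 in the other 4. Serpinb7 was likewise at its highest ILK-deficient value there, so this array was the highest ILK-deficient array for the 4 consecutive genes Serpinb7, Serpinb2, Serpinb10 and Serpinb8. Over all 25 members tested it was the highest of its genotype for 8, and ILK-deficient replicate 4 was for 7. The run of 4 genes was picked after the values were seen, and whether this array stands apart was not tested. ILK-expressing replicate 5 was the highest of its genotype for 10 of the 25, among them Serpinb3c, Serpinb3d, Serpinb7, Serpinb12 and Stfa2. Next came ILK-expressing replicate 4, for 6. Without ILK-expressing replicate 5, the log2 fold change was 1.61 for Serpinb11 (limma adjusted p = 0.00459), -0.62 for Serpinb3a (limma adjusted p = 0.0352), 0.57 for Serpinb6a (limma adjusted p = 0.0245) and -0.50 for Serpinb7 (limma adjusted p = 0.0701).

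**Figure D3:**
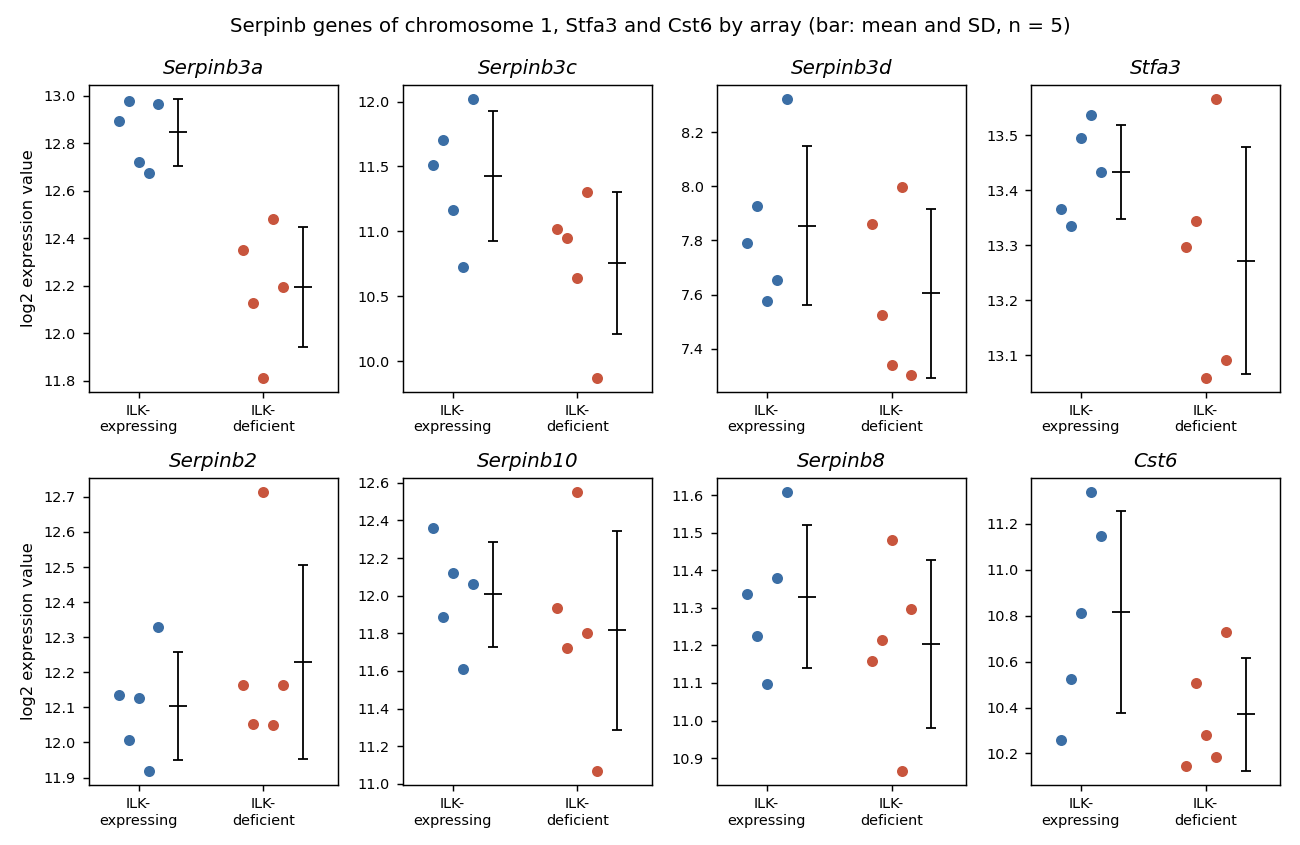
Log2 expression values (y axis, a scale of its own in each panel) of 6 Serpinb genes of chromosome 1, Stfa3 and Cst6. Points are arrays in the order of their replicate numbers, 5 per genotype, and the bar gives the mean and SD. Of these 8 genes only Serpinb3a has genotypes that do not overlap, and 1 ILK-deficient array is high for Serpinb2, Serpinb10 and Serpinb8.

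Serpinb6a, the called member of the chromosome 13 cluster, is an intracellular inhibitor of trypsin-like proteases and cathepsin G that is made in many tissues. It was at 9.87, 10.06, 10.18, 10.07 and 10.24 on the ILK-deficient arrays and at 9.60, 9.25, 9.72, 9.50 and 9.78 on the ILK-expressing arrays. All ILK-deficient arrays were higher, with a gap of 0.0934 between the groups. The log2 fold change was 0.51 (95% interval 0.28 to 0.75, standard error 0.107, limma adjusted p = 0.0272, exact permutation p = 0.00794), a 1.43-fold higher value. The call ended without any of ILK-deficient replicates 2, 3, 4 and 5 or ILK-expressing replicates 1 and 4, at limma adjusted p between 0.0525 and 0.0742, and the log2 fold change stayed between 0.43 and 0.57 over the 10 arrays left out. Its close relatives did not pass. Serpinb6c had a log2 fold change of 0.32 (limma adjusted p = 0.413), with ILK-deficient replicate 3 at 8.21 and all other arrays at 7.03 to 7.64. Serpinb6b was at 0.13 (limma adjusted p = 0.612) and Serpinb6d at -0.03 (limma adjusted p = 0.93). Serpinb6d was read at a low level, with means of 6.64 in ILK-deficient and 6.67 in ILK-expressing epidermis.

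The remaining chromosome 13 members are relatives of the elastase inhibitor Serpinb1 and of Serpinb9, which protects cells from granzyme B. Serpinb1a, the mouse inhibitor of neutrophil elastase, had the largest log2 fold change among them, at 0.19 (limma adjusted p = 0.699), with arrays at 6.88 to 7.57 against 6.74 to 7.45. Serpinb1b (0.04), Serpinb1c (-0.00), Serpinb9b (-0.06), Serpinb9c (0.02) and Serpinb9e (-0.06) all had log2 fold changes near 0, at limma adjusted p between 0.824 and 0.989. Their genotype means lay between 5.90 (Serpinb1b) and 6.48 (Serpinb9c), under the array medians of 7.07 to 7.17. Readings this low may leave a difference unseen. Serpinb9, Serpinb9d and Serpinb6e were not tested, since they reached the linear value of 50, or 5.64 on the log2 scale, on only 4, 0 and 3 arrays. Serpinb9 was at 5.68 ± 0.108 (SD, n = 5) against 5.64 ± 0.032 (SD, n = 5), with an exact permutation p = 0.46. A low reading near that limit does not show that a transcript is absent. The genes Serpinb9f, Serpinb9g and Serpinb9h, and with them Stfa1 and Stfa2l1, had no probe set of their own here, and 5 probe sets shared by several symbols were left out.

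**Figure D4:**
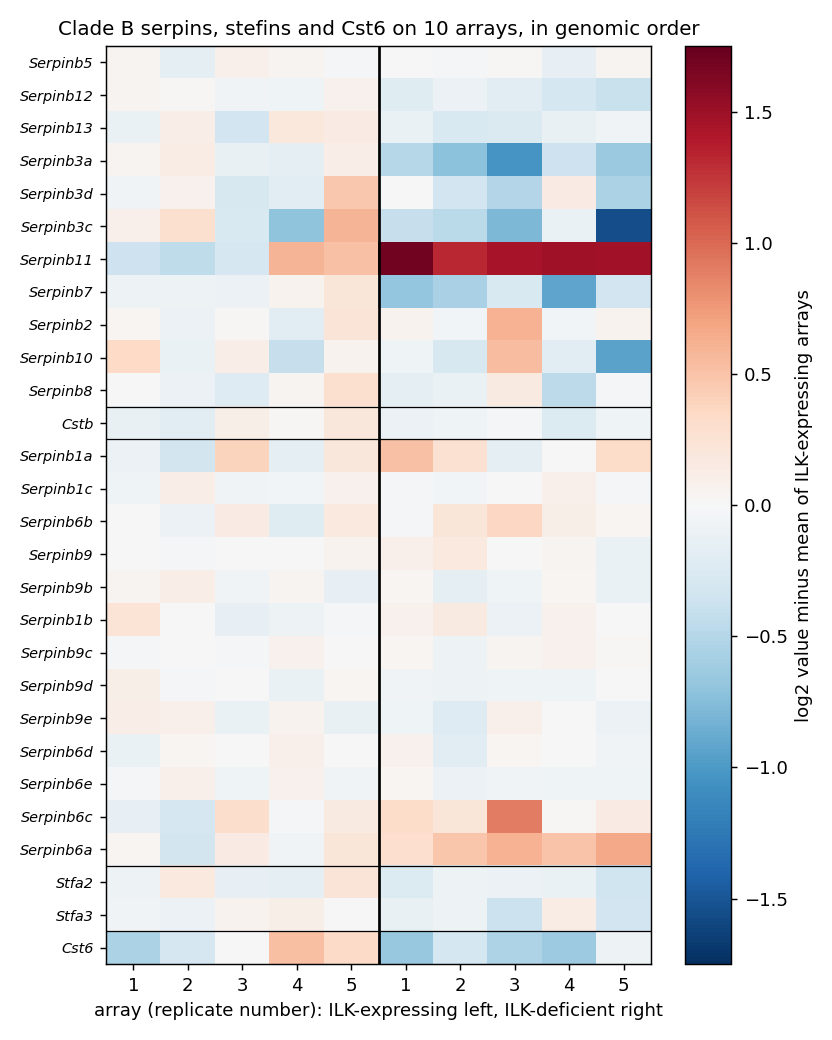
Log2 value of each of the 28 members (rows, in genomic order) on each array (columns) minus the mean of the 5 ILK-expressing arrays, with red above and blue below that mean. Serpinb11 is red and Serpinb3a and Serpinb7 are blue across all 5 ILK-deficient arrays. Most chromosome 13 members stay pale, several of them genes read at low values.

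The stefins and Cst6 inhibit cathepsins, and none of these 4 members passed in limma. The stefin A gene Csta1, outside the naming rule, did pass and was lower (log2 fold change -0.57, limma adjusted p = 0.0171). Cstdc6, likewise outside the rule, did not pass, at 9.49 in ILK-deficient and 9.66 in ILK-expressing epidermis (log2 fold change -0.17, limma adjusted p = 0.727). None of the 4 was called with any of the other tests run, and Cst6 alone had a p under 0.05 before adjustment. Stfa3 was at 13.30, 13.34, 13.06, 13.57 and 13.09 on the ILK-deficient and at 13.37, 13.34, 13.49, 13.54 and 13.43 on the ILK-expressing arrays. Its ILK-deficient values were the more scattered (SD 0.206 against 0.0848, n = 5 each), and the log2 fold change was -0.16 (limma adjusted p = 0.508). Stfa2 was at 12.01 to 12.28 against 12.19 to 12.59 (log2 fold change -0.18, limma adjusted p = 0.442). Cstb, whose human counterpart is mutated in a progressive myoclonus epilepsy, was at 11.15 to 11.36 against 11.21 to 11.59 (log2 fold change -0.11, limma adjusted p = 0.647). Cst6, whose loss gives mice a scaling, barrier-deficient skin, was at 10.15, 10.51, 10.28, 10.19 and 10.73 against 10.26, 10.53, 10.81, 11.34 and 11.15. The ILK-expressing arrays spread over more than a log2 unit, and the log2 fold change of -0.45 (95% interval -0.89 to -0.00, limma adjusted p = 0.312, exact permutation p = 0.0873) did not pass.

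Proteases that such inhibitors act on, and other inhibitors of the epidermis, are given here from lists, beside the 3.78% called over all probe sets. Of 11 cysteine cathepsins and legumain, 2 were higher, 1 was lower and 8 did not pass, with a median log2 fold change of 0.19. Ctsc, which activates granule serine proteases, fell by 0.81 on the log2 scale (limma adjusted p = 0.00355). Ctss, a cathepsin of antigen-presenting cells, rose by 0.38 (limma adjusted p = 0.0394), and Lgmn, the legumain that cystatin M/E inhibits, rose by 0.53 (limma adjusted p = 0.0404). Ctsb, a lysosomal cathepsin that stefins inhibit, was at -0.14 (limma adjusted p = 0.761). Among 24 secreted and granule serine proteases, 2 were lower and 22 did not pass, with a median of -0.04. These were Prss27, a serine protease of squamous epithelia (-0.95, limma adjusted p = 0.00556), and Tmprss4, a transmembrane protease (-0.40, limma adjusted p = 0.0446). St14, which encodes matriptase, was at -0.07 (limma adjusted p = 0.876). Elane, Cma1, the granzymes, Tmprss11a and Tmprss11d, all among the 24, had genotype means between 5.62 (Elane) and 6.48 (Gzme). These are near the filter limit of 5.64, where a difference could go unseen.

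Of 11 kallikreins, secreted proteases that take part in shedding of corneocytes, 2 were lower and 9 did not pass, and the median was -0.33. Klk8 (-0.80, limma adjusted p = 0.00331) and Klk10 (-0.65, limma adjusted p = 0.023) fell, and Klk7 was at -0.31 (limma adjusted p = 0.109). Of 8 caspases, 1 was higher, Casp6 (0.44, limma adjusted p = 0.0306), and Casp14, the caspase of cornifying cells, was at -0.24 (limma adjusted p = 0.0738). The caspases had a median of 0.01. Among 28 other protease inhibitors, 3 were lower and 25 did not pass, with a median of -0.04. Csta1, a further stefin A gene that the naming rule does not take, fell by 0.57 (limma adjusted p = 0.0171). Spink5, the kallikrein inhibitor LEKTI, fell by 0.41 (limma adjusted p = 0.0308), and Wfdc5, of the whey acidic protein family, by 0.59 (limma adjusted p = 0.0496). Cst3, the secreted cystatin C, was at -0.09 (limma adjusted p = 0.613).

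Of 23 genes of late differentiation, 3 were lower and 20 did not pass, with a median of -0.24. The 3 were Crnn, which encodes cornulin (-3.11, limma adjusted p = 0.0158), Tgm3, a transglutaminase (-0.94, limma adjusted p = 0.00203), and Cnfn, which encodes cornifelin (-0.40, limma adjusted p = 0.0349). Lce1a1, of the late cornified envelope, was at -0.00 (limma adjusted p = 0.999). Of 15 stress keratins and stress response genes, 2 were higher and 13 did not pass, with a median of 0.19. Tslp, a keratinocyte cytokine, rose by 2.60 (limma adjusted p = 0.00742), Krt17 by 0.30 (limma adjusted p = 0.0325), and Stat3 was at 0.19 (limma adjusted p = 0.303). Of the 20 called genes named here, members included, 9 kept the call without each array in turn, namely Serpinb11, Serpinb3a, Ctsc, Prss27, Klk8, Csta1, Crnn, Tgm3 and Tslp. Each of the other 11 lost it without 5 to 9 of the 10 arrays, each left out singly, at limma adjusted p of at most 0.114.

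**Figure D5:**
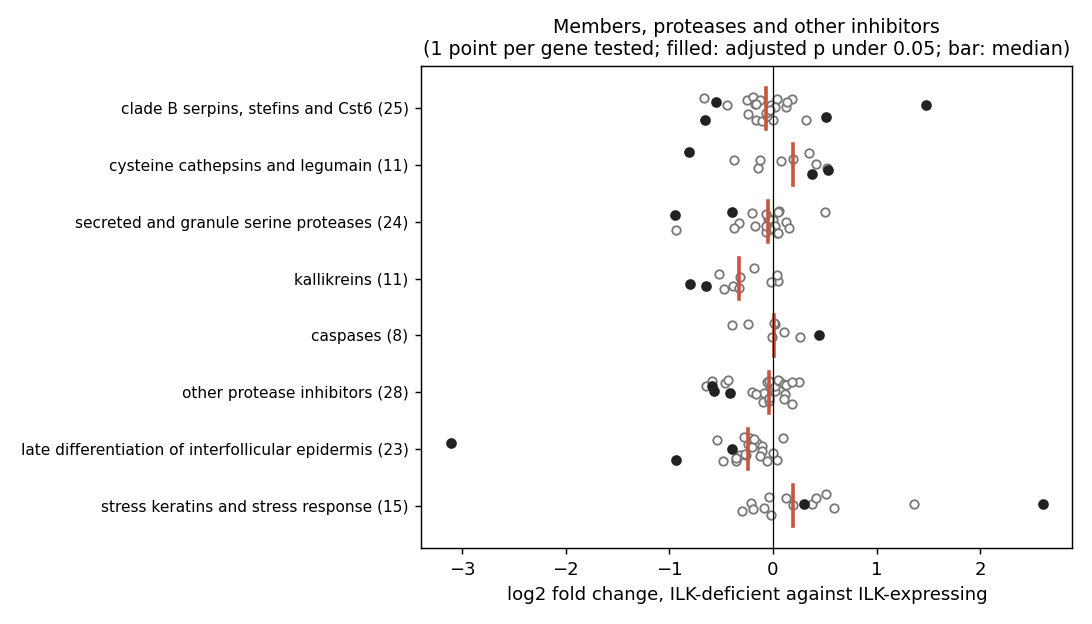
Log2 fold change (ILK-deficient against ILK-expressing, x axis) of each gene tested among the clade B serpins, stefins and Cst6 and in 7 lists of proteases, inhibitors, differentiation and stress genes, with the number tested in brackets. Filled points had an adjusted p under 0.05, and the bar is the median, which is -0.06 for the inhibitors described here and -0.33 for the kallikreins.

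Markers of some cell types in the tissue moved with genotype while those of others did not, and their part in the results above was not tested. Summed linear values of 8 keratinocyte markers were 77100 to 80400 in ILK-deficient and 77400 to 87500 in ILK-expressing epidermis, with 1 higher and 1 lower (0 to 2 called over the 19 alternatives). Hair shaft and inner root sheath genes were lower for 12 of 15, with sums of 3030 to 5720 against 17800 to 78800, and 10 to 12 were called over the alternatives. Macrophage and monocyte genes were higher for 3 of 13 (2430 to 2820 against 1820 to 2220), and melanocyte genes for 6 of 8 (7290 to 13700 against 2080 to 5020). The 3 macrophage and monocyte genes were Adgre1, Lyz2 and Mertk. The median over the 13 was 0.19, while Cd68, Cd163 and Ccr2 lay slightly below 0. The alternatives called 1 to 4 macrophage and monocyte genes and 1 to 8 melanocyte genes, and the analysis of variance with Benjamini-Hochberg adjustment called 1 of each. Thy1, which stands in both the list of 12 T cell and natural killer cell genes and that of 8 dermal fibroblast genes, was the only call in either (0.39, limma adjusted p = 0.0421), and 14 of the 19 alternatives called none in these lists. Sebocyte genes had a median of -0.75 over 7 tested, with sums of 1140 to 1810 against 1690 to 5550. Limma called none of the 7, although 3 were lower with p under 0.05 before adjustment, and 5 of the 19 alternatives called 1 or 2. Mc5r (-2.13, limma adjusted p = 0.0537) and Elovl3 (-2.31, limma adjusted p = 0.0508), both sebocyte genes, had no overlap between genotypes. For neutrophils, from which Serpinb1a and the stefin A genes are also known, limma called none of 11 genes tested. Of these 11, 1 was lower with p under 0.05 before adjustment, and none was called in any of the 19 alternatives. The sums, over 15 neutrophil genes with a probe set, were 875 to 940 against 880 to 998. Ltf, Csf3r, Mmp8 and Mmp9 were under the linear value of 50 on all 10 arrays. The other neutrophil genes were also read low. Their highest genotype mean was 6.82 (S100a9, ILK-expressing), under the array medians of 7.07 to 7.17, so a difference in neutrophils could go unseen. Limma and the 19 alternatives also called none of 24 genes in the 4 lists for Langerhans and dendritic cells, mast cells and basophils, endothelium and erythroid cells. Before adjustment, 1 of these was higher with p under 0.05 and none was lower.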

How the data were processed

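RNA of 10 epidermis samples, 1 mouse each, was hybridised to GeneChip Mouse Gene 1.0 ST Arrays. The authors deposited log2 values per probe set (35556), background-adjusted, normalized and summarised. RMA and GC-RMA both appear in their methods, and the one behind this table is not given in the sources used here. Array medians were 7.07 to 7.17. Arrays give no read depth, and their number limits the precision. Genotypes came from the labels.

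Of the probe sets, 21789 carried 1 gene symbol in the platform annotation, 1621 several and 12146 none. A gene was read from its single-symbol probe set with the highest mean. Probe sets that reached a linear value of 50 on 5 or more arrays were tested (32046 kept, 3510 left out) with limma 3.58.1 in R 4.3.3, without a block, two-sided, with Benjamini-Hochberg adjustment over all of them. The exact permutation test, two-sided, used all splits into 5 and 5. The fit was tested on simulated data. Values on each array are given for members that were called or without overlap, for the 3 with the highest mean, and for others chosen after their values were seen. Of each protease, inhibitor, differentiation and stress list, up to 3 called genes with the smallest adjusted p are named. The most abundant gene not called is named too. The marker genes, and Cstdc6, are named after their values were seen. The members and all lists, markers included, were chosen with earlier results of these data known. Alternatives changed the filter, scaling, test, block, probe sets per gene or arrays used, and the methods' own threshold was added after seeing the data. Promoters and gene order came from RefSeq, GRCm38.p6.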

Additional observations from a re-analysis of the deposited data

Results flagged for a closer look

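In the groups of 5 arrays examined, chance puts about 1 group in 20 (5%) past the limit for a single array far from the others, and 10 of 104 groups were past it, 6 of them among the 56 groups of the clade B serpins, stefins and Cst6. On the log2 scale, Serpinb2 was at 12.71 in ILK-deficient replicate 3 and at 12.05 to 12.16 in the other 4 ILK-deficient arrays. Cstb was at 11.15 in ILK-deficient replicate 4 (11.3 to 11.36 in the others), and Serpinb1c was at 6.37 in the same array (6.245 to 6.28). Serpinb9c was at 6.364 in ILK-deficient replicate 2 (6.485 to 6.534). Near the limit of the filter, Serpinb9d was at 5.246 in ILK-deficient replicate 5 (5.165 to 5.185), and Serpinb9 was at 5.698 in ILK-expressing replicate 5 (5.617 to 5.635). Among the other genes named, Prss27 was at 8.275 in ILK-deficient replicate 4 (8.569 to 8.673), and Krt17 was at 13.24 in ILK-deficient replicate 3 (13.45 to 13.48). In ILK-expressing replicate 5, Csta1 was at 9.371 (8.83 to 8.936) and Cnfn at 12.92 (12.67 to 12.72).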

How the results depend on the processing

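Of 474 log2 fold changes of members recomputed over 19 alternatives, 441 kept their direction and their side of the threshold, 20 lost the call, 1 gained it and 12 changed sign. Serpinb11 and Serpinb3a kept the call in all 19, Serpinb3a at a limma adjusted p of up to 0.0461 with 1 array left out. Serpinb6a lost it in 8 and Serpinb7 in 12. Median centring of each array called 593 probe sets higher and 2 members (1 higher and 1 lower), repeated quantile normalization called 481 probe sets lower, and the methods' analysis of variance, here with Benjamini-Hochberg adjustment and no fold limit, called 686 (528 higher and 158 lower) and 2 members (1 higher and 1 lower). At the methods' own threshold of an unadjusted p under 0.05 and 1.5-fold, added after seeing the data, it called 780 (518 higher and 262 lower) and 2 members, Serpinb11 (1 higher) and Serpinb3a (1 lower). The labels give both genotypes replicate numbers 1 to 5, but same-numbered arrays correlated at -0.0231, -0.296, -0.179, -0.11 and 0.113, and no ILK-deficient array matched its own number best. With the replicate block, 608 probe sets (477 higher and 131 lower) and 3 members (2 higher and 1 lower) were called, and Serpinb7 lost its call (limma adjusted p = 0.0761). With 1 array left out, 597 to 1010 probe sets were called (439 to 793 higher, 158 to 281 lower), 2 to 3 members were (1 to 2 higher, 1 to 2 lower), 5 to 7 members had an exact p under 0.05, and the members' median was -0.104 to -0.0316. The changes of sign were all in genes near 0. Serpinb9c was at -0.00466 after centring, and with array weights Serpinb1b was at -0.00687, Serpinb1c at 0.0242, Serpinb6d at 0.00338 and Lce1a1 at 0.00569. With 1 array left out, Serpinb1c ran from -0.026 to 0.0237, Serpinb6d from -0.0579 to 0.0123, Serpinb5 from -0.059 to 0.00889 and Lce1a1 from -0.0552 to 0.0493. The cause of these changes was not tested.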
